A study of Mus musculus with 6 samples.

Results

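The suppressors of cytokine signalling (SOCS) are a family of 8 mouse genes, Cish and Socs1 to Socs7, and all 8 were found by gene symbol among the 45777 genes of the series table. The neutrophils came from bone marrow of C57BL/6 mice of wild type genotype and were purified on a Percoll density gradient. They were kept for 24 h with PGE2 at 10 µM (prostaglandin E2, a lipid that raises cyclic AMP through some of its receptors) or with vehicle alone (DMSO, per the series design). Each group held 3 libraries, stated to be biological replicates. All groups had thus been in culture, at a single dose and a single time, and the age and number of the mice are not given in the sources used here. Because the samples are bulk RNA, fewer cells of a type and less RNA per cell cannot be told apart.

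SOCS proteins are feedback brakes of cytokine receptors that signal through Janus kinases (JAKs) and STAT transcription factors. STATs switch on SOCS genes, and the proteins bind phosphorylated receptors or JAKs through an SH2 domain, while a SOCS box at the other end recruits elongins and a cullin ubiquitin ligase. In neutrophils and their precursors Socs3 is known to restrain signalling of the granulocyte colony-stimulating factor receptor and of gp130, the shared receptor chain of the interleukin 6 family.

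Sequence around the transcription start was taken from RefSeq promoters (GRCm38.p6), in which 4 of the 8 genes had an entry: Cish, Socs1, Socs3 and Socs4. The windows ran from 250 bases before the start to 50 after it, and were searched on both strands for the STAT element TTCNNNGAA, for the cyclic AMP response element TGACGTCA and for its short core TGACG. Both genes whose windows held the STAT element are shown, since these were also the members with the largest fold changes that passed the test, with the element in capitals (Cish at chr9:107296654-107296683, plus strand, and Socs3 at chr11:117969502-117969530, minus strand).
Cish: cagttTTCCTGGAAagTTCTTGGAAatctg
Socs3: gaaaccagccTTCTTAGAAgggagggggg
The Cish window held 2 copies, which began at bases 1 and 12 of the RefSeq transcript, inside the 5′ untranslated region of the GENCODE transcript Cish-201. The Socs3 copy began 154 bases before the start site of its RefSeq promoter window (base 117969366), within an intron of the GENCODE transcript Socs3-202. That start site lies 970 bases inside the Socs3 locus as the deposited tables give it, so the copy is upstream of this start and inside the longer locus. Of 32851 RefSeq promoter windows, 8.30% held the STAT element and 0.457% held it at least 2 times. The full cyclic AMP element, which was in 1.79% of all windows, was in none of the 4, and its short core, which was in 20.8%, was in the windows of Cish and Socs4. These matches describe letters only.

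With PGE2, Socs3, the most abundant SOCS mRNA in every library of both groups, rose 3.09-fold, Cish rose 1.90-fold and Socs7 rose 1.32-fold. No member was called lower, and the other 5 did not pass. All 8 members passed the filter on low counts. A gene was called where its adjusted p from edgeR's quasi-likelihood test, corrected over all 15947 genes tested, was under 0.05. By this rule 3 of 8 members were higher, beside 10.1% of all genes tested, and 0 of 8 were lower, beside 14.3%. The PGE2 and vehicle libraries did not overlap in 5 of 8 members, beside 42.3% of all genes. The median log2 fold change of the members was 0.37 and that of all genes 0.04. With 1 library left out, the count of higher members was 1 (Socs3) without PGE2 replicate 2, vehicle replicate 2 or vehicle replicate 3.

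Socs3, which inhibits JAKs bound to gp130 and to the granulocyte colony-stimulating factor receptor, lies on chromosome 11 (117966079 to 117970336, mm10). Its level was 47.5, 58.3 and 29.0 TPM (a level per transcript length and library size) in PGE2 replicates 1, 2 and 3, against 15.4, 16.2 and 16.8 TPM in vehicle replicates 1, 2 and 3. The 3 PGE2 libraries were all above the vehicle libraries, and they were spread widely while the vehicle libraries lay close together. On library-scaled counts (CPM, scaled to library size) the means were 81.7 ± 29.7 with PGE2 and 26.4 ± 2.01 with vehicle (SD, n = 3 each). The log2 fold change was 1.63 ± 0.24 (SE), with a 95% interval of 1.08 to 2.18 and an edgeR adjusted p of 0.00231. Without PGE2 replicate 2, the highest library, it was 1.33 with an edgeR adjusted p of 0.00419, and without PGE2 replicate 3, the lowest of its group, it was 1.86. Among the genes tested, Socs3 stood at percentile 84.7 of mean TPM with PGE2 and at percentile 66.2 with vehicle.

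**Figure D1:**
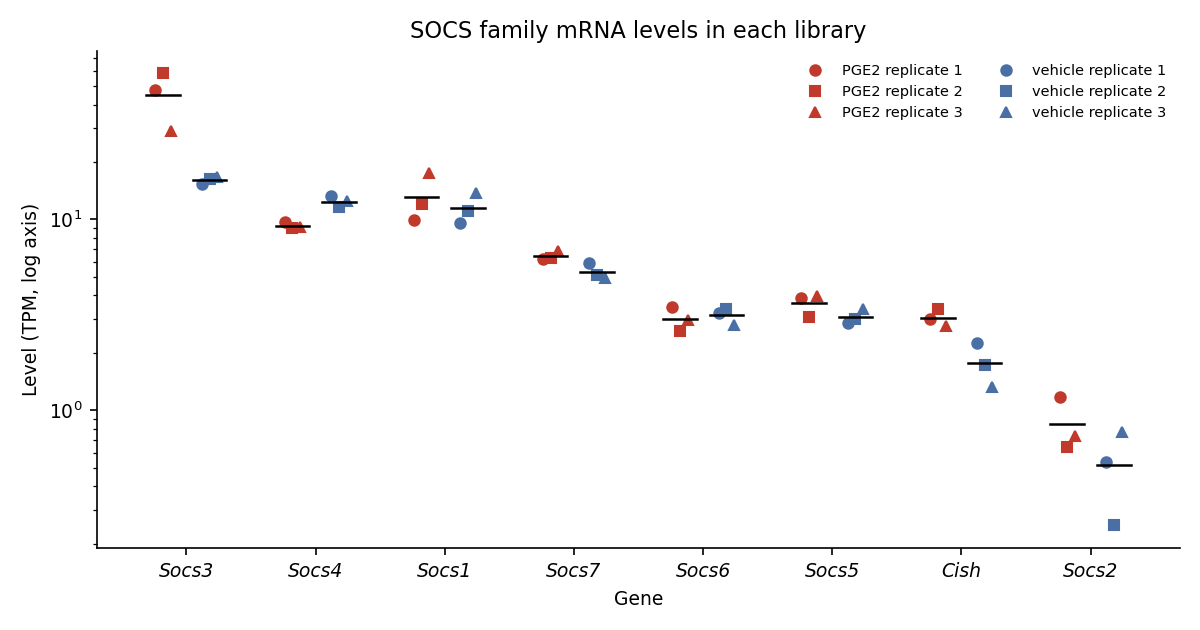
TPM of each SOCS gene on a log axis, with PGE2 libraries in red to the left of vehicle libraries in blue, a symbol for each replicate number and a black line at each group mean. Socs3 sits between 29.0 and 58.3 TPM with PGE2, above its vehicle libraries at 15.4 to 16.8 TPM, while Socs4 is lower in all 3 PGE2 libraries, although it did not pass the test.

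Cish, the founding member, is a STAT5 target that dampens STAT5 signalling, and lies on chromosome 9 (107296659 to 107302784). It was a weakly expressed gene, at 3.01, 3.39 and 2.77 TPM in PGE2 replicates 1 to 3, against 2.24, 1.72 and 1.33 TPM in vehicle replicates 1 to 3. The groups did not overlap. Its counts were 277 to 369 reads per PGE2 library and 122 to 164 per vehicle library, and its log2 fold change was 0.93 ± 0.23 (SE; edgeR adjusted p = 0.0194). The adjusted p came to 0.0656 when PGE2 replicate 2 was left out, 0.0541 when vehicle replicate 2 was and 0.0616 when vehicle replicate 3 was, over a range of 0.00318 to 0.122 for all alternatives. In these 3 fits the log2 fold change was 0.77, 0.97 and 0.77. On the deposited TPM values it was 0.57 on log2(TPM + 1) (limma adjusted p = 0.0534, and 0.122 with no filter) and 0.79 on log2(TPM + 0.1) (limma adjusted p = 0.0604). GENCODE places a pseudogene, Gm17040, and an antisense gene, Gm17041, on the other strand of Cish, and the sources do not say whether counting used the strand, so reads of these genes cannot be told apart from those of Cish.

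Socs2, the closest relative of Cish in sequence and a known brake on growth hormone signalling, was the lowest member. It had 86, 49 and 67 reads in PGE2 replicates 1 to 3, against 31, 20 and 52 in vehicle replicates 1 to 3, or 0.849 ± 0.287 TPM with PGE2 and 0.518 ± 0.259 TPM with vehicle (SD, n = 3 each). The groups overlapped. The log2 fold change was 0.77 ± 0.41 (SE) with a 95% interval of -0.17 to 1.71 (edgeR adjusted p = 0.216), so at this depth neither no change nor a rise of the size seen in Socs3 falls outside it. The value was 0.49 without PGE2 replicate 1 and 0.29 on log2(TPM + 1) with no filter. Socs2 overlaps the RefSeq gene Gm33230.

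Socs1, which like Socs3 carries a kinase inhibitory region and is the main brake on interferon gamma signalling, lies on chromosome 16 (10783808 to 10785536). It was at 9.95, 12.0 and 17.6 TPM in PGE2 replicates 1 to 3, against 9.55, 11.05 and 13.8 TPM in vehicle replicates 1 to 3. The groups overlapped, and within each same-numbered pair the PGE2 library was the higher. The log2 fold change was 0.31 ± 0.24 (SE) with a 95% interval of -0.24 to 0.85 (edgeR adjusted p = 0.398). With 1 library left out the value was 0.11 without PGE2 replicate 3, 0.17 without vehicle replicate 1, 0.46 without vehicle replicate 3 and 0.51 without PGE2 replicate 1, and it did not pass in any of these fits. On the deposited TPM values it was 0.16 to 0.17. Same-numbered libraries differed by 0.17, 0.32 and 0.37 in log2 CPM, and with the replicate number as a block the edgeR adjusted p was 0.084.

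Among the remaining members, which are larger proteins known less for cytokine feedback than for growth factor receptor and insulin signalling, Socs7 passed. Socs7 (chromosome 11, 97362292 to 97398542), whose product binds SH3 domain adaptors of the NCK type, was at 25.9, 30.7 and 28.2 CPM in PGE2 replicates 1 to 3, against 21.6, 22.0 and 20.7 CPM in vehicle replicates 1 to 3. The groups did not overlap in CPM, and the log2 fold change was 0.40 ± 0.10 (SE; edgeR adjusted p = 0.0229). The call ended when PGE2 replicate 2 was left out (edgeR adjusted p = 0.077), or vehicle replicate 2 (0.0663), or vehicle replicate 3 (0.0776). On log2(TPM + 1) of the deposited values the log2 fold change was 0.23 with a limma adjusted p of 0.298, and the median of all genes moved by -0.10 on that scale. Over all alternatives its adjusted p ran from 0.00569 to 0.317.

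Socs4, which is known from cell lines to act on the epidermal growth factor receptor, went the other way without passing. It was at 12.2, 13.4 and 11.4 CPM in PGE2 replicates 1 to 3, against 15.1, 15.1 and 15.6 CPM in vehicle replicates 1 to 3. All 3 PGE2 libraries were below the vehicle libraries, with a log2 fold change of -0.31 ± 0.11 (SE; edgeR adjusted p = 0.0818, range 0.0509 to 0.213 over the alternatives). Socs5, also known for that receptor and for interleukin 4 signalling, was at 9.85 to 10.7 CPM with PGE2 and at 7.16 to 8.78 CPM with vehicle. Its groups did not overlap, and its log2 fold change of 0.34 ± 0.13 did not pass either (edgeR adjusted p = 0.102, and 0.0534 with the block). It was 0.18 on log2(TPM + 1). It overlaps the RefSeq gene Gm30510. Socs6 (chromosome 18), whose product is known to bind the stem cell factor receptor KIT, was at 10.5 to 12.2 CPM with PGE2 and at 9.80 to 12.4 CPM with vehicle, with groups that overlapped. Its log2 fold change was 0.03 ± 0.14 (95% interval -0.29 to 0.35; edgeR adjusted p = 0.913).

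**Figure D2:**
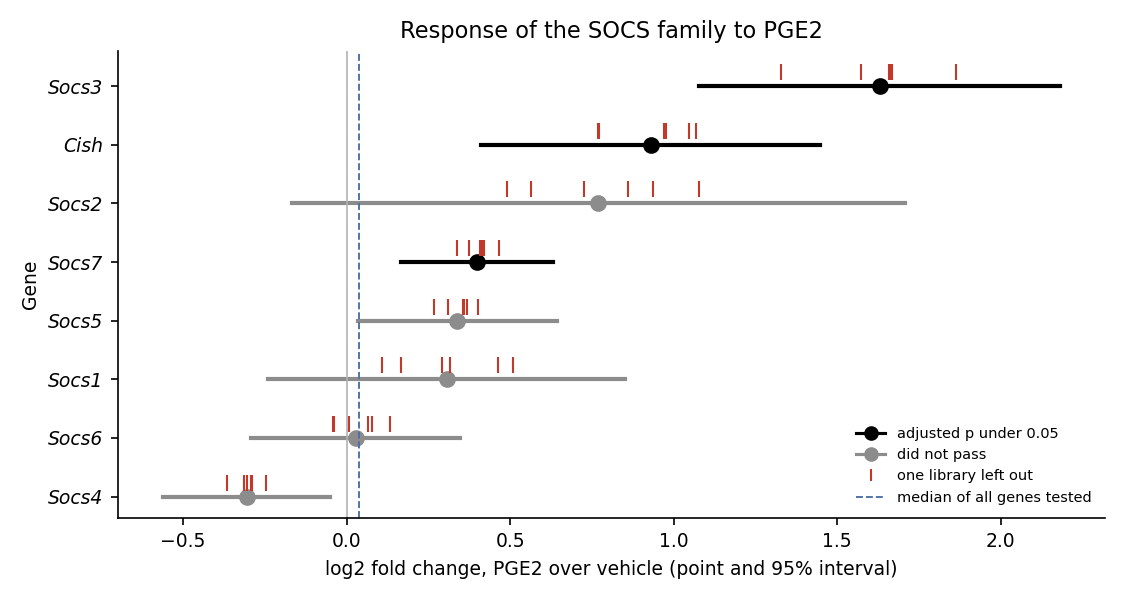
Log2 fold change of each SOCS gene, PGE2 over vehicle, as a point with its 95% interval, black where the gene passed, with red ticks for the values with 1 library left out and a dashed line at the median of all genes (0.04). Socs3 (1.63), Cish (0.93) and Socs7 (0.40) are black, the interval of Socs2 is the widest, and that of Socs6 is centred near 0.

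The members differed in level by more than an order of magnitude. Under vehicle the order of mean TPM was Socs3 (16.1 ± 0.71), Socs4 (12.4 ± 0.815), Socs1 (11.5 ± 2.15), Socs7 (5.32 ± 0.516), Socs6 (3.14 ± 0.306), Socs5 (3.08 ± 0.287), Cish (1.76 ± 0.459) and Socs2 (0.518 ± 0.259). Socs4 and Socs1 overlapped there, as did Socs6 and Socs5, while the libraries of every other pair of neighbours in that order lay apart. With PGE2 the order was Socs3 (44.9 ± 14.8), Socs1 (13.2 ± 3.94), Socs4 (9.27 ± 0.336), Socs7 (6.42 ± 0.348), Socs5 (3.64 ± 0.49), Cish (3.06 ± 0.314), Socs6 (3.01 ± 0.444) and Socs2 (0.849 ± 0.287). There Socs5 overlapped with Cish and Cish with Socs6, while the libraries of every other pair of neighbours lay apart.

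Summed over the family, SOCS mRNA amounted to 84.8, 95.3 and 72.9 TPM in PGE2 replicates 1 to 3, against 52.9, 52.3 and 56.2 TPM in vehicle replicates 1 to 3. Socs3 made up 55.98, 61.2 and 39.8% of that sum in PGE2 replicates 1 to 3, against 29.0, 31.0 and 29.8% in vehicle replicates 1 to 3. Socs4 made up 11.1 ± 1.5% with PGE2 and 23.1 ± 1.64% with vehicle (SD, n = 3 each). A ratio of members within a library does not depend on how libraries are scaled. There were 4.77, 4.86 and 1.65 Socs3 transcripts for each Socs1 transcript in PGE2 replicates 1 to 3, against 1.61, 1.47 and 1.22 in vehicle replicates 1 to 3. PGE2 replicate 3, with the lowest Socs3 and the highest Socs1 of its group, came close to the vehicle libraries in this ratio. Of the 7 ratios of Socs3 to another member, 5 did not overlap between groups, and those to Cish and Socs2 did. An exact two-sided permutation test of such a ratio cannot go below 0.1 with 3 libraries against 3, so these ratios are descriptions.

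**Figure D3:**
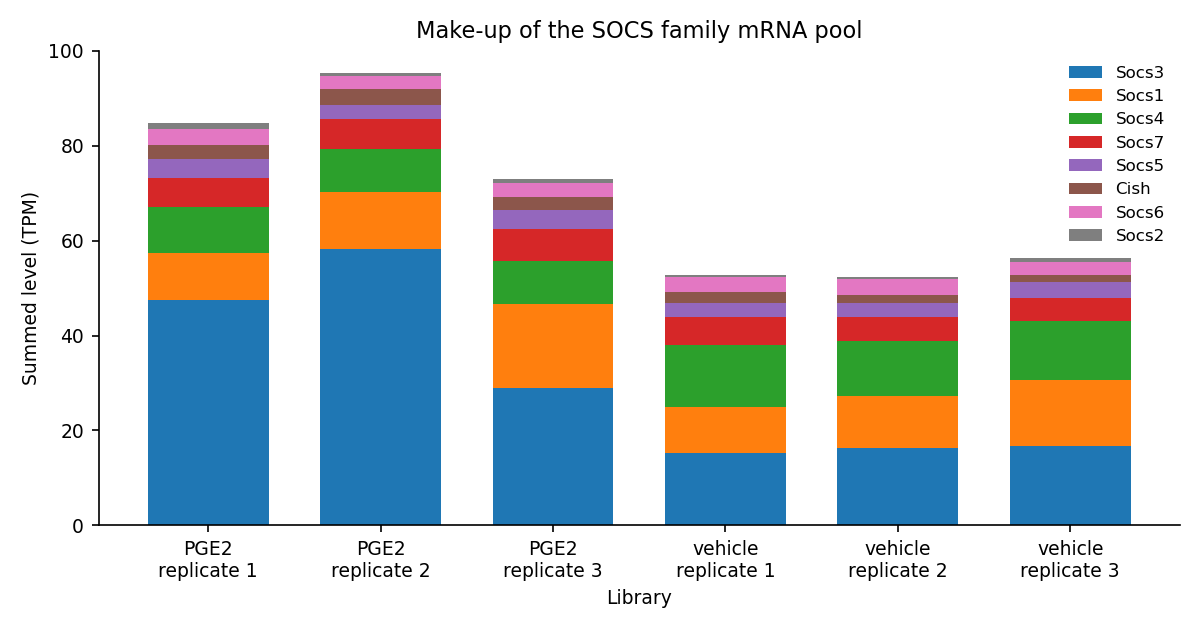
Summed TPM of the SOCS genes in each library, stacked by gene, with the PGE2 libraries left of the vehicle libraries. The Socs3 segment takes 39.8 to 61.2% of the bar in PGE2 libraries and 29.0 to 31.0% in vehicle libraries, and the rest of the bar changes less.

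The genes whose profile was nearest to that of Socs3 and Socs1, the members with the highest mean TPM, were picked from 10373 genes searched. The measure was the root mean square difference of log2 CPM, each gene centred on its mean over the 6 libraries. For Socs3 they were Ifitm2, an interferon-induced transmembrane protein gene, at 0.186, the noncoding RNA gene Snhg15 at 0.201 and the guanylate cyclase gene Gucy2c at 0.224. Ifitm2 was at 851, 1024 and 746 CPM in PGE2 replicates 1 to 3, against 251, 294 and 276 CPM in vehicle replicates 1 to 3. Like Socs3, it was highest in PGE2 replicate 2 and lowest of its group in PGE2 replicate 3, a likeness that the way of picking it favours. For Socs1 they were H2-Q6, an MHC class I gene with close paralogs, at 0.0529, the zinc finger gene Zfp955a at 0.0725 and Mfhas1 at 0.078. None of these last 3 genes passed the test.

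The kinases and transcription factors upstream of the family were mostly lower with PGE2. Of 10 JAK and STAT genes, all tested, 6 were lower, 1 was higher and 3 did not pass, with a median log2 fold change of -0.47. These are 60% lower and 10% higher, beside 14.3% and 10.1% of all genes. Jak1, a kinase used by most of these receptors, was at 495 ± 11.4 CPM with PGE2 and at 846 ± 25.4 CPM with vehicle (SD, n = 3 each), a log2 fold change of -0.77 ± 0.08. Jak2, used by the receptors of granulocyte growth factors, had a log2 fold change of -0.74 ± 0.09, and Stat5b, which drives Cish, one of -0.55 ± 0.08. Stat4, a factor of interleukin 12 signalling, rose by 0.56 ± 0.09 on the log2 scale, a call lost on log2(TPM + 1) with no filter. Stat3, the factor best known for driving Socs3 (named here after its value was seen), was at 302 CPM with PGE2 and 285 CPM with vehicle, with a log2 fold change of 0.08 (edgeR adjusted p = 0.569).

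Of 30 listed genes for receptors coupled to JAKs 26 were tested, and 4 were higher, 4 lower and 18 did not pass, with a median log2 fold change of 0.10. Each count is 15.4% of the list, near the 10.1% higher and 14.3% lower of all genes. Csf3r, the granulocyte colony-stimulating factor receptor to which SOCS3 binds, was at 2901, 2729 and 2460 CPM in PGE2 replicates 1 to 3, against 4702, 5222 and 5534 CPM in vehicle replicates 1 to 3. All PGE2 libraries were below all vehicle libraries, and its log2 fold change was -0.93 ± 0.11. The interleukin 6 receptor gene Il6ra was at -1.46 ± 0.09 and the GM-CSF receptor gene Csf2ra at -0.51 ± 0.08, and Il6st, which encodes gp130, had a log2 fold change of -0.57 (edgeR adjusted p = 0.00747). The interleukin 10 receptor genes Il10rb and Il10ra rose by 0.84 ± 0.11 and 0.55 ± 0.09 on the log2 scale and the interferon gamma receptor gene Ifngr1 by 0.56 ± 0.14. Epor, the erythropoietin receptor gene, was the other one called higher, at 1.65 (edgeR adjusted p = 0.0306). Il6st and Epor are named here after their values were seen. Higher receptor genes numbered 2 without PGE2 replicate 2, vehicle replicate 1 or vehicle replicate 2, 1 on log2(TPM + 1) with no filter and 7 with the block.

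Of 23 listed genes for ligands of such receptors, 14 were tested, and 5 were higher and 1 lower. Their median log2 fold change was 0.55. These are 35.7% higher and 7.14% lower, beside 10.1% and 14.3% of all genes. Osm, which encodes oncostatin M of the interleukin 6 family, rose by 2.15 ± 0.12 and Il15 by 1.12 ± 0.10 on the log2 scale. Il23a, an interleukin 23 subunit gene, was at 1.76 ± 0.825 CPM with PGE2 and 0.26 ± 0.213 CPM with vehicle (SD, n = 3 each), a log2 fold change of 2.77 ± 0.63 for a gene near the lower limit of measurement with vehicle. Ebi3, a subunit of interleukin 27, was at -0.63 ± 0.11. Il6 itself was near that limit in both groups, at 0.458 CPM with PGE2 and 0.317 CPM with vehicle, and did not pass. Higher ligand genes numbered 3 without PGE2 replicate 2 or vehicle replicate 1 and on log2(TPM + 1) with no filter, and lower ones numbered 2 with the block.

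Genes listed as ubiquitin ligase machinery for the SOCS box were higher or did not pass. Of 15 listed and tested, 8 were higher and 0 lower, and their median log2 fold change was 0.35. These are 53.3% higher and 0% lower, beside 10.1% and 14.3% of all genes. The list mixes genes of ligases built on the Cul2 and on the Cul5 scaffold. Its count is therefore not one for the ligase of SOCS proteins alone. The scaffold gene Cul2 was at 19.0 ± 0.571 CPM with PGE2 and 9.85 ± 1.73 CPM with vehicle (SD, n = 3 each), a log2 fold change of 0.95 ± 0.14. The neddylation genes Dcun1d1 and Nedd8 rose by 0.59 ± 0.08 and 0.53 ± 0.09 on the log2 scale, and the RING subunit gene Rbx1 by 0.47 ± 0.08. Cul5, the scaffold that SOCS proteins use most, was at 19.7 CPM with PGE2 and 18.5 CPM with vehicle and did not pass (edgeR adjusted p = 0.643). Another RING subunit gene, Rnf7, rose by 0.47 ± 0.12 on the log2 scale (edgeR adjusted p = 0.0223). Cul5 and Rnf7 are named here after their values were seen. On the deposited TPM values the higher genes of this list numbered 4 with the filter and 2 with none. Other SOCS box genes, of the Asb, Spsb, Wsb, Neurl and Rab40 families, gave 1 higher and 2 lower of 15 tested among 27 listed, with a median of -0.04. These are 6.67% higher and 13.3% lower, near the 10.1% and 14.3% of all genes. Asb7 was at -1.08 ± 0.19 and Wsb1 at -0.40 ± 0.09, and Spsb1 rose by 1.07 ± 0.29. Wsb2 was at -0.24 ± 0.09 and did not pass. Spsb1 was called with all libraries and without vehicle replicate 3, and not without any other single library nor on the deposited TPM values. In this list the lower genes numbered 1 without vehicle replicate 2 or vehicle replicate 3, while 2 were higher with the block.

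Other genes listed as brakes on the same pathway went mostly the other way from Socs3. The list also holds adaptor genes related to the brake gene Sh2b3, so its counts are not of brakes alone. Of 16 listed and tested, 9 were lower, 2 higher and 5 did not pass, with a median log2 fold change of -0.34. These are 56% lower and 12.5% higher, beside 14.3% and 10.1% of all genes. Ptpn6, which encodes the phosphatase SHP-1, was at 536, 471 and 509 CPM in PGE2 replicates 1 to 3, against 987, 1075 and 1194 CPM in vehicle replicates 1 to 3. Every PGE2 library was below every vehicle library, with a log2 fold change of -1.10 ± 0.10. Cbl, a ubiquitin ligase gene, was at -1.01 ± 0.12, the adaptor gene Sh2b3 at -0.65 ± 0.08 and Usp18, which blocks the type I interferon receptor, at -1.60 ± 0.21. Sh2b2, an adaptor gene related to Sh2b3, and the phosphatase gene Ptpn2 rose by 1.00 ± 0.18 and 0.43 ± 0.09 on the log2 scale. On log2(TPM + 1) with no filter 1 gene of this list was higher.

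**Figure D4:**
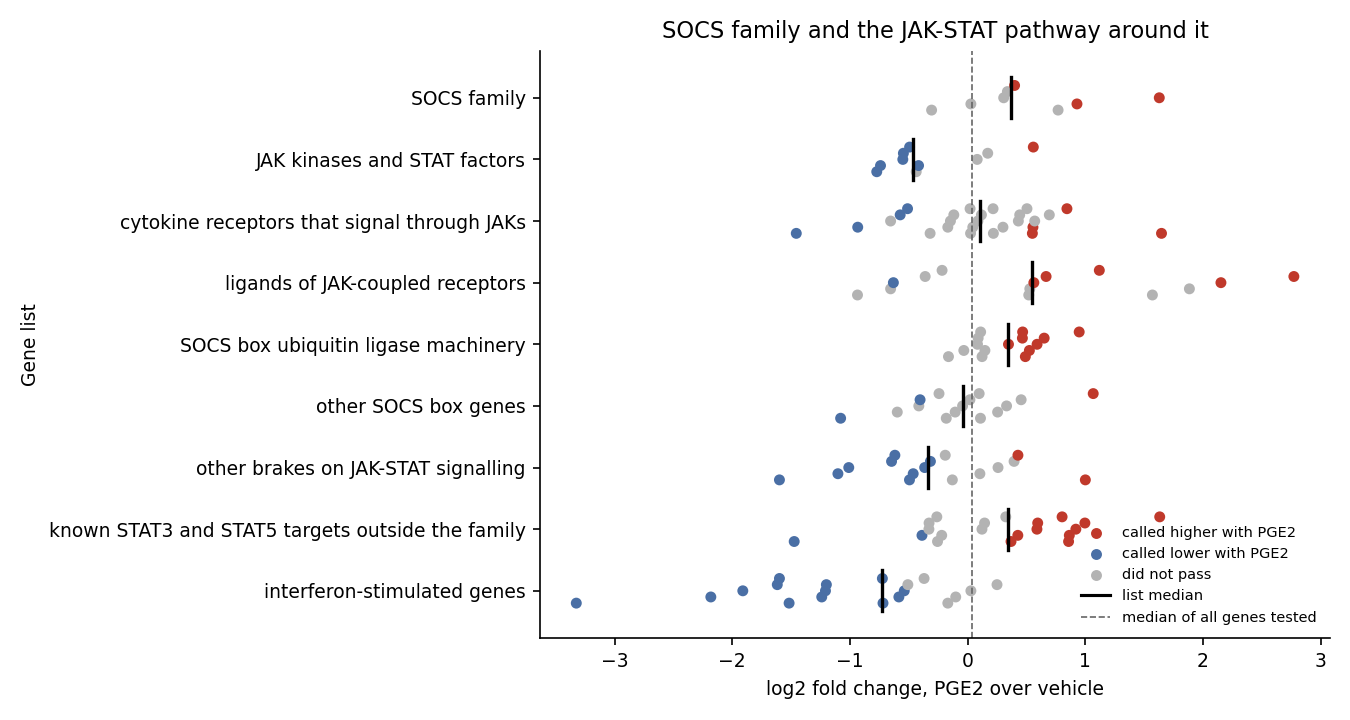
Log2 fold change, PGE2 over vehicle, of each tested gene of the SOCS family and of the lists around it, coloured by call, with a black line at each list's median and a dashed line at the median of all genes (0.04). The JAK and STAT genes (median -0.47), the list of other brakes (-0.34) and the interferon-stimulated genes (-0.72) lie mostly left of the dashed line. The SOCS family (0.37), the list of ligase machinery (0.35) and the STAT3 and STAT5 targets (0.35) lie mostly right of it.

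Known targets of STAT3 and STAT5 outside the family and interferon-stimulated genes had medians on opposite sides of 0. Of 20 listed STAT3 and STAT5 targets, all tested, 10 were higher and 2 lower. Their median log2 fold change was 0.35. These are 50% higher and 10% lower, beside 10.1% and 14.3% of all genes. Cebpb, a transcription factor gene of granulocytes that also answers to cyclic AMP, was at 320 ± 64.1 CPM with PGE2 and 103 ± 19.2 CPM with vehicle (SD, n = 3 each), a log2 fold change of 1.63 ± 0.18. Gadd45g rose by 0.92 ± 0.09, Hif1a by 0.86 ± 0.11 and the survival kinase gene Pim2 by 0.80 ± 0.10 on the log2 scale. Fgl2 and Cebpd had log2 fold changes of -1.47 ± 0.21 and -0.39 ± 0.11. The lower targets numbered 1 without PGE2 replicate 1, PGE2 replicate 3, vehicle replicate 2 or vehicle replicate 3, and 5 with the block, and the higher ones 6 on log2(TPM + 1) with no filter. Of 20 listed interferon-stimulated genes, 19 were tested, and 13 were lower and 0 higher, with a median of -0.72. These are 68.4% lower and 0% higher, beside 14.3% and 10.1% of all genes. Among the lower genes were Oasl2 at -1.91 ± 0.11, Ifit3 at -3.33 ± 0.29, Ifit2 at -1.20 ± 0.15 and Irf7 at -0.72 ± 0.09. Usp18 is in both the list of brakes and this one.

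Of the marker lists, that of neutrophils had the highest summed level in every library. S100a9 was at 42105 CPM with PGE2 and 36044 CPM with vehicle, and S100a8 at 19707 CPM with PGE2 and 17488 CPM with vehicle. Neither S100a9 nor S100a8 passed the test. Of 12 neutrophil markers, 8 were lower and 0 higher, with a median log2 fold change of -0.73. Beside this and the marker counts below, 14.3% of all genes were lower and 10.1% higher. Csf3r is among the lower neutrophil markers and is also in the list of receptors coupled to JAKs. The neutrophil markers summed to 72806 to 87588 CPM with PGE2 and 74361 to 83586 CPM with vehicle. Most of that sum was S100a9 and S100a8, so it says little of the other neutrophil markers. Genes of other cells were present, and no defining marker was at 0 in all libraries. Erythroid markers, led by Hbb-bs and Hba-a1, summed to 15817 to 51857 CPM with PGE2 and to 4501 to 20249 CPM with vehicle, with 0 of 10 called. PGE2 replicate 2, the library with the highest Socs3, Cish and Epor, also had the highest hemoglobin share, 4.87% of its counts, against 1.57 and 2.51% in PGE2 replicates 1 and 3 and 0.413 to 1.86% in vehicle libraries. Of 9 B lineage markers, led by Cd79a and Cd79b, 4 were higher, with sums of 554 to 811 CPM with PGE2 and 384 to 518 CPM with vehicle. Monocyte and macrophage markers, led by Ly6c2 and Csf1r, summed to 889.9 to 1335 CPM with PGE2 and 1253 to 1628 CPM with vehicle, with 2 of 12 lower. Eosinophil, basophil and mast cell markers, led by Prg2 and Prss34, summed to 132 to 229 CPM with PGE2 and 226 to 315 CPM with vehicle, with 4 of 12 lower. T and NK cell markers, led by Lck and Cd3d, summed to 73.5 to 192 CPM with PGE2 and 71.3 to 153 CPM with vehicle, and platelet markers, led by Itga2b and Pf4, to 29.4 to 41.0 CPM with PGE2 and 24.3 to 36.5 CPM with vehicle, with 0 called in either list. The part of these cells in the changes of the SOCS family was not tested.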

How the data were processed

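The authors deposited estimated counts in 1 table for the series. They are whole numbers, and the file name speaks of normalized counts, although totals differ between libraries (42091346 to 56238941 reads). The same table and the authors' table of each library give TPM, and the tables per library add coordinates. The tools named are DESeq2, RSEM, StringTie 2.1.3b, STAR and Bowtie2 and the build is mm10, per the submitters' processing notes. Their roles, and whether counting used the strand, are not given in the sources used here, and per the labels' protocols the kit is named both as standard and as stranded. A further 18 columns of other libraries were not used.

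Estimated counts were rounded, and genes with at least 10 counts in at least 3 libraries (15947) were tested with edgeR 4.0.16's quasi-likelihood test (TMM scaling, two-sided, Benjamini-Hochberg at 0.05, R 4.3.3). Its standard errors are the errors given for log2 fold changes. The test was checked on simulated data with 67, 67 and 66 genes changed 1.5-fold, 2-fold and 4-fold. It found 19.4, 43.3 and 77.3% of them, and 5.1% of its calls were false. A gene that did not pass may thus still have changed, most of all where the change is small. The members, lists and alternatives were chosen with earlier results of these data known, and some listed genes are not reported here. All members are named, along with the 4 genes of each pathway list with the smallest adjusted p, up to 2 called in the opposite direction, the 2 most abundant markers of each cell list and the 3 genes nearest in profile to each of the 2 members with the highest TPM.

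Replicate numbers come from the titles. Deviations from group means of same-numbered libraries correlated at 0.26, 0.17 and 0.19, and differently numbered ones at -0.17 to 0.00. Same-numbered libraries were thus somewhat more alike, but the sources used here state no pairing. Deviations within a group of 3 sum to 0, so these correlations are not independent and cannot establish a pairing. The results given come from the fit without a block, and the fit with the number as a block is given beside them where it changed a call of a member or moved a count by over 1.5 times. Replicates differed by more than sampling noise (chi-square per gene 32.5 to 118). Alternatives were the block, omission of each library, size factors and the Wald test of DESeq2 1.42.0, library totals, no filter or 50 counts, and limma 3.58.1 on log2(TPM + 1) or log2(TPM + 0.1) for genes of at least 1 TPM in 3 libraries, or on all genes above 0.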

Additional observations from a re-analysis of the deposited data

How the results depend on the processing

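The call of Socs3 held under all 15 alternatives (log2 fold change 1.33 to 1.86, adjusted p 1.23e-10 to 0.0282). With the replicate block the higher genes numbered 2648 of those tested, against 1618 without it, the SOCS members called stayed at 3, and no member's call changed. It moved no other count of a pathway list by over 1.5 times. With a library left out, the higher genes numbered 1005 to 1541, of which 1063 without PGE2 replicate 2 and 1005 without vehicle replicate 2, and the higher SOCS members 1 to 3. On log2(TPM + 1), log2(TPM + 0.1) and log2(TPM + 1) with no filter the higher genes numbered 967, 953 and 670, and 1 SOCS member was higher under each. No alternative called a SOCS member lower. Of all calls, 41.5% were higher with TMM, 55.5% with library totals alone and 30% on log2(TPM + 1). Socs6, which was not called under any alternative, had log2 fold changes of -0.041 (without vehicle replicate 3) to 0.13 (without vehicle replicate 2) with a library left out, and of -0.048, -0.063 and -0.048 on log2(TPM + 1), log2(TPM + 0.1) and log2(TPM + 1) with no filter. The cause of these differences was not tested. Depth limits Socs2 most, with 20 to 86 reads per library, and it was not tested on TPM with the filter. The p-values set the difference between groups against the spread between these 6 libraries, as estimated with help from the other genes. How many mice that spread covers is not given.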
